A study of Mus musculus with 90 samples.

Results

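Genes on the output side of the liver clock were followed through all feeding, hormone and knockout conditions of this mouse liver series. They were the 3 PAR-bZIP activators Dbp, Tef and Hlf, and the repressor Nfil3, whose protein acts through the same DNA motif as theirs. The others were the E-box repressors Bhlhe40 and Bhlhe41, and the targets Ciart, Usp2 and Wee1. These 9 genes were chosen by name, of 24312 gene symbols in the expression table. RNA was sequenced from 54 livers of C57BL/6 mice or of floxed mice on a C57BL/6 background, as the labels give it, in 16 groups and 5 experiments, each liver from 1 mouse. All mice were kept in single cages and trained for 4 days to eat only at night (night-restricted feeding, NRF), so that food normally appeared when the lights went off. By the study's methods the mice of the NRF and injected experiments were C57BL/6N and 10 weeks old, and the NRF mice were male. The GR floxed mice were adults on a C57BL/6N background, and the L-IRSdKO mice were on a C57BL/6J background and entered NRF at 10 weeks, while the mice of the obesity experiment were males that began their diets at 5 weeks.

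In the NRF experiment, livers were taken at zeitgeber time (ZT) 10, late in the light phase, and at ZT14, early in the dark phase, either after the night meal (ZT14-fed) or with food withheld (ZT14-unfed), with n = 2 per group. In the injected experiment (n = 4 per group, all ZT14), mice received PBS vehicle, 1 mg/kg of the synthetic glucocorticoid dexamethasone (dex), the insulin receptor antagonist S961 (44 nM per mouse as the labels give it, a dose the study's methods give per body weight), or both, shortly before lights off. Those groups were fed, and a further vehicle group was unfed. In the L-GRKO experiment (n = 4), mice with floxed alleles of the glucocorticoid receptor (GR) gene Nr3c1 received an adeno-associated virus with Cre or GFP under the hepatocyte promoter Tbg, and all were unfed at ZT14. In the L-IRSdKO experiment (n = 4), mice with floxed Irs1 and Irs2, the genes of the insulin receptor substrates, did or did not carry Cre under the albumin promoter, and the controls as well as the knockouts were fed and had received dex. In the obesity experiment (n = 3), obese mice on a high-fat diet and lean mice on chow, both for 10 weeks, were fed or unfed at ZT14. Lists of GR binding sites, FOXO1 binding sites and DNase hypersensitive sites (DHS) from livers of the same study were also used. The GR and FOXO1 lists are sites found in both replicates of unfed livers at ZT14, and the DHS were called on all DNase libraries combined. These lists hold positions only, so no binding level per condition was read from them.

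As background, the clock activators BMAL1 and CLOCK bind E-boxes, short DNA motifs with the letters CACGTG, in Dbp and in some of the other output genes. The proteins DBP, TEF and HLF then activate genes through D-boxes such as TTATGTAA, and NFIL3 (also called E4BP4) represses through the same D-boxes, so that the balance of the activators and NFIL3 sets the phase of downstream genes. BHLHE40 and BHLHE41 (DEC1 and DEC2) compete at E-boxes, and CIART (CHRONO) is another repressor of BMAL1 and CLOCK. Usp2 encodes a deubiquitinating enzyme that acts on clock proteins, and Wee1 encodes a kinase that holds back entry into mitosis. In liver, PAR-bZIP factors are known for the rhythm of genes of drug and bile acid metabolism.

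The E-boxes of the output genes are shown first, because they define the target side of the group. A promoter was taken as the 300 bases before the annotated 5' end of the gene, and both strands were searched, so a palindromic motif counted once. CACGTG was found in the promoters of 5 of the 9 genes (Bhlhe40, Bhlhe41, Ciart, Usp2 and Wee1), beside 9.23% of the promoters of 12541 expressed genes. The Ciart promoter held 3 copies, and the Dbp promoter held none. The 30-base stretches around the E-box of the other promoters are given with the E-box in capitals, 5' to 3' on the strand of the gene, and all sequences were read from the mouse genome build mm9.
Bhlhe40 E-box (mm9 chr6:108610354-108610383, plus strand): agcgttgtccaaCACGTGaggctcatgtga
Bhlhe41 E-box (mm9 chr6:145814076-145814105, minus strand): tggtacgttccgCACGTGagctgggtgctg
Usp2 E-box (mm9 chr9:43874934-43874963, plus strand): gtgctttttctcCACGTGgttctctgtata
Wee1 E-box (mm9 chr7:117265748-117265777, plus strand): cgcgcccgatcgCACGTGgcggacccgccc
Ciart promoter, 3 E-boxes (mm9 chr3:95686175-95686474, minus strand): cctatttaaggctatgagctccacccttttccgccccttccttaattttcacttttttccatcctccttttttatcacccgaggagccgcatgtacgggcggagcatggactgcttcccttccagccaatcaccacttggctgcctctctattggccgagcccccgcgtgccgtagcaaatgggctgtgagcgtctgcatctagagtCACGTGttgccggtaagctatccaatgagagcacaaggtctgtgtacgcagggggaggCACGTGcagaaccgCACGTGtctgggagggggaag

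The Dbp gene carried its elements in hypersensitive sites. A DHS 0.17 kb upstream of the start held a match to the RORE, the element of the REV-ERB receptors, which was present in the promoter of Dbp and in 0.407% of all promoters. RORE matches also lay in a DHS 6.11 kb into Nfil3 and in a DHS 27.18 kb upstream of Hlf, beside 0.519% of all DHS. A DHS 2.65 kb into Dbp held a CACGTG E-box, a motif found in 3.23% of the 83592 DHS. The 2 sites are shown with the element in capitals.
Dbp upstream DHS, RORE (mm9 chr7:52960208-52960375, plus strand): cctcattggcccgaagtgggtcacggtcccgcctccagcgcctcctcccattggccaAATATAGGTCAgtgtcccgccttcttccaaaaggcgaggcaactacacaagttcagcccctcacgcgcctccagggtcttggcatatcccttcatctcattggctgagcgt
Dbp internal DHS, E-box (mm9 chr7:52963027-52963194, plus strand): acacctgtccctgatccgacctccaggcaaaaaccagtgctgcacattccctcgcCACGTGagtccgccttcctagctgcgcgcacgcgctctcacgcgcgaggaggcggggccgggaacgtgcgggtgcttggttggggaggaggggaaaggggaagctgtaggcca

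D-boxes, searched as TTATGTAA or TTACGTAA and their reverse complements, were absent from the 300-base promoters of all 9 genes, and 0.837% of all promoters held one. They were present inside listed sites of Wee1, Nfil3 and Ciart. The DHS in the first part of Wee1 held 2 copies, and D-boxes were found in 1.53% of all DHS. A GR site inside Nfil3 and the GR site upstream of Ciart held 1 copy each, beside 2.8% of the 10446 GR sites. The capitals mark the D-box.
Wee1 DHS, 2 D-boxes (mm9 chr7:117266502-117266669, plus strand): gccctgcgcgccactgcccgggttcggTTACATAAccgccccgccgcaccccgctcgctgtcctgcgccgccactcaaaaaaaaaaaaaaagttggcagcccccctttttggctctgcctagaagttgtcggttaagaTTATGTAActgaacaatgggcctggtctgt
Nfil3 GR site, D-box (mm9 chr13:53071650-53071829, minus strand): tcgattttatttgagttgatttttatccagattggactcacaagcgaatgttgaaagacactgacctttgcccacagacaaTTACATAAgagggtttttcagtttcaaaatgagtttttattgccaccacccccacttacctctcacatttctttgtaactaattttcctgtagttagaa
Ciart GR site, D-box (mm9 chr3:95686665-95686844, minus strand): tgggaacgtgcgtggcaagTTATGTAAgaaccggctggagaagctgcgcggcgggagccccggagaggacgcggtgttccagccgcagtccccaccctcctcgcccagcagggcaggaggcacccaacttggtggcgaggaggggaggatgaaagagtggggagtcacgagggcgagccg

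Glucocorticoid response elements, searched as ACANNNTGT, were found in 8 of the 28 GR sites within 50 kb of the 9 genes, beside 20.3% of all GR sites. The site inside Usp2 and the nearest site to Wee1 are shown, with the element and its spacer in capitals.
Usp2 GR site (mm9 chr9:43887094-43887273, plus strand): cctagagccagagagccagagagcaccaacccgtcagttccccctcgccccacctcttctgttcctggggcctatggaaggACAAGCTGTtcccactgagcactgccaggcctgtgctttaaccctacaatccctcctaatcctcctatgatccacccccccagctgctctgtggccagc
Wee1 GR site (mm9 chr7:117260544-117260723, plus strand): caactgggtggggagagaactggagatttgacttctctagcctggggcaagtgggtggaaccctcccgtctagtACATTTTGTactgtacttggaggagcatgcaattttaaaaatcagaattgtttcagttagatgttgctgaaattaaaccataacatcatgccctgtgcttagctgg

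Expression is given as RPKM (reads scaled to transcript length and to the mapped reads of the library) as deposited, so levels may be set side by side between genes, but not between experiments, which differed in library type and depth. Differences are on the log2 scale of RPKM + 0.5, with the standard error (SE) of the fit and an adjusted p from limma with Benjamini-Hochberg correction over all genes tested. A gene was called at an adjusted p below 0.01 in the NRF and obesity experiments and below 0.05 in the others. Bhlhe41 did not pass the filter of a mean of 0.5 RPKM in any experiment, so 8 genes entered each test. Where values of a gene are said not to overlap between groups, the share of all genes without overlap was not counted. In bulk liver, fewer cells of a type and less RNA per cell cannot be told apart.

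The targeted genes and cell markers were read in every library. Nr3c1 was at 3.93 to 5.35 RPKM in the L-GRKO livers and at 12.8 to 16.2 in the AAV-GFP livers, and Irs1 at 0.149 to 0.321 in the L-IRSdKO livers and 2.21 to 4.73 in the floxed controls. Irs2 was at 0.272 to 1.00 RPKM in the knockouts and 0.614 to 5.61 in the controls, so these ranges overlapped. In all 8 libraries of the L-IRSdKO experiment the summed hepatocyte markers were at 2405 to 3024 RPKM, against 30118 to 78039 RPKM in the other 46 libraries, and 1 read was worth a median of 3.03 times as much RPKM as in the NRF libraries. The part of these differences in the results was not tested. Obese unfed replicate 1 stood apart from its 2 partners in several of the 9 genes. In comparisons that include its group, results that it moves across the threshold, and several others that it moves, are given with and without it. The lean fed against unfed and obese against lean fed comparisons used the spread of all groups of the experiment, this library included. They were refitted without it only when the compared groups were fitted alone.

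At ZT10 and ZT14-unfed, without a meal between them, Dbp and Tef fell, while the repressor Nfil3 rose. Dbp stood at 35.8 and 34.5 RPKM at ZT10, at 5.70 and 6.74 in ZT14-unfed livers, and at 10.2 and 11.6 in ZT14-fed livers, so the 3 groups did not overlap. From ZT10 to ZT14-unfed Dbp fell by 2.41 on the log2 scale (SE 0.12, limma adjusted p = 0.00051). Nfil3 was at 2.66 and 2.78 RPKM at ZT10, 9.71 and 11.1 in ZT14-unfed livers, and 3.19 and 4.45 in ZT14-fed livers. It rose by 1.76 (SE 0.15, limma adjusted p = 0.0037) without food. Tef, at 46.0 and 39.5 RPKM at ZT10 and 24.3 and 24.1 in ZT14-unfed livers, fell by 0.81 (SE 0.10, limma adjusted p = 0.0084). Wee1 went from 4.79 and 4.55 RPKM to 2.36 and 2.23 and fell by 0.89 (SE 0.10, limma adjusted p = 0.0063). Ciart (log2 difference -0.80, limma adjusted p = 0.028), Usp2 (-0.31), Hlf (-0.28) and Bhlhe40 (0.13) were not called. Thus 4 of 8 tested genes were called, beside 1.16% of 10907 genes. Summed hepatocyte markers were at 32255 to 32665 RPKM at ZT10 and 36155 to 36643 RPKM in ZT14-unfed livers, and their part was not tested.

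The night meal was measured as ZT14-fed against ZT14-unfed. Nfil3 fell by 1.35 (SE 0.15, limma adjusted p = 0.0066), and its ZT14-fed values lay just above those at ZT10. Hlf, at 3.13 and 3.31 RPKM in unfed livers and 5.82 and 6.18 in fed livers, rose by 0.81 (SE 0.10, limma adjusted p = 0.0089). Dbp and Wee1 were higher in both fed livers than in both unfed livers without passing the threshold, with log2 differences of 0.76 and 0.65 and an adjusted p of 0.016 for each gene by limma. Bhlhe40 was at 16.6 and 21.7 RPKM with food and 11.3 and 12.7 without, a difference of 0.65 (limma adjusted p = 0.053). Of the 8 genes, 2 were called, against a background of 0.99% of all genes. Of the 4 endothelial markers 3 were lower in every fed liver and 0 higher in every fed liver. Their sums were at 37.5 to 42.0 RPKM fed and 45.4 to 48.7 RPKM unfed. Summed hepatocyte markers were at 30118 to 33323 RPKM fed and 36155 to 36643 RPKM unfed, and the part of these cell types was not tested. With 2 livers per group, the Tef, Wee1 and Hlf calls were lost when any 1 library of the groups compared was left out, and the fed-against-unfed Nfil3 call when ZT14-unfed replicate 2 or either fed library was left out. The Dbp call from ZT10 to ZT14-unfed was lost without ZT10 replicate 2 (highest adjusted p 0.012), and the Nfil3 rise without either ZT10 library.

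**Figure D1:**
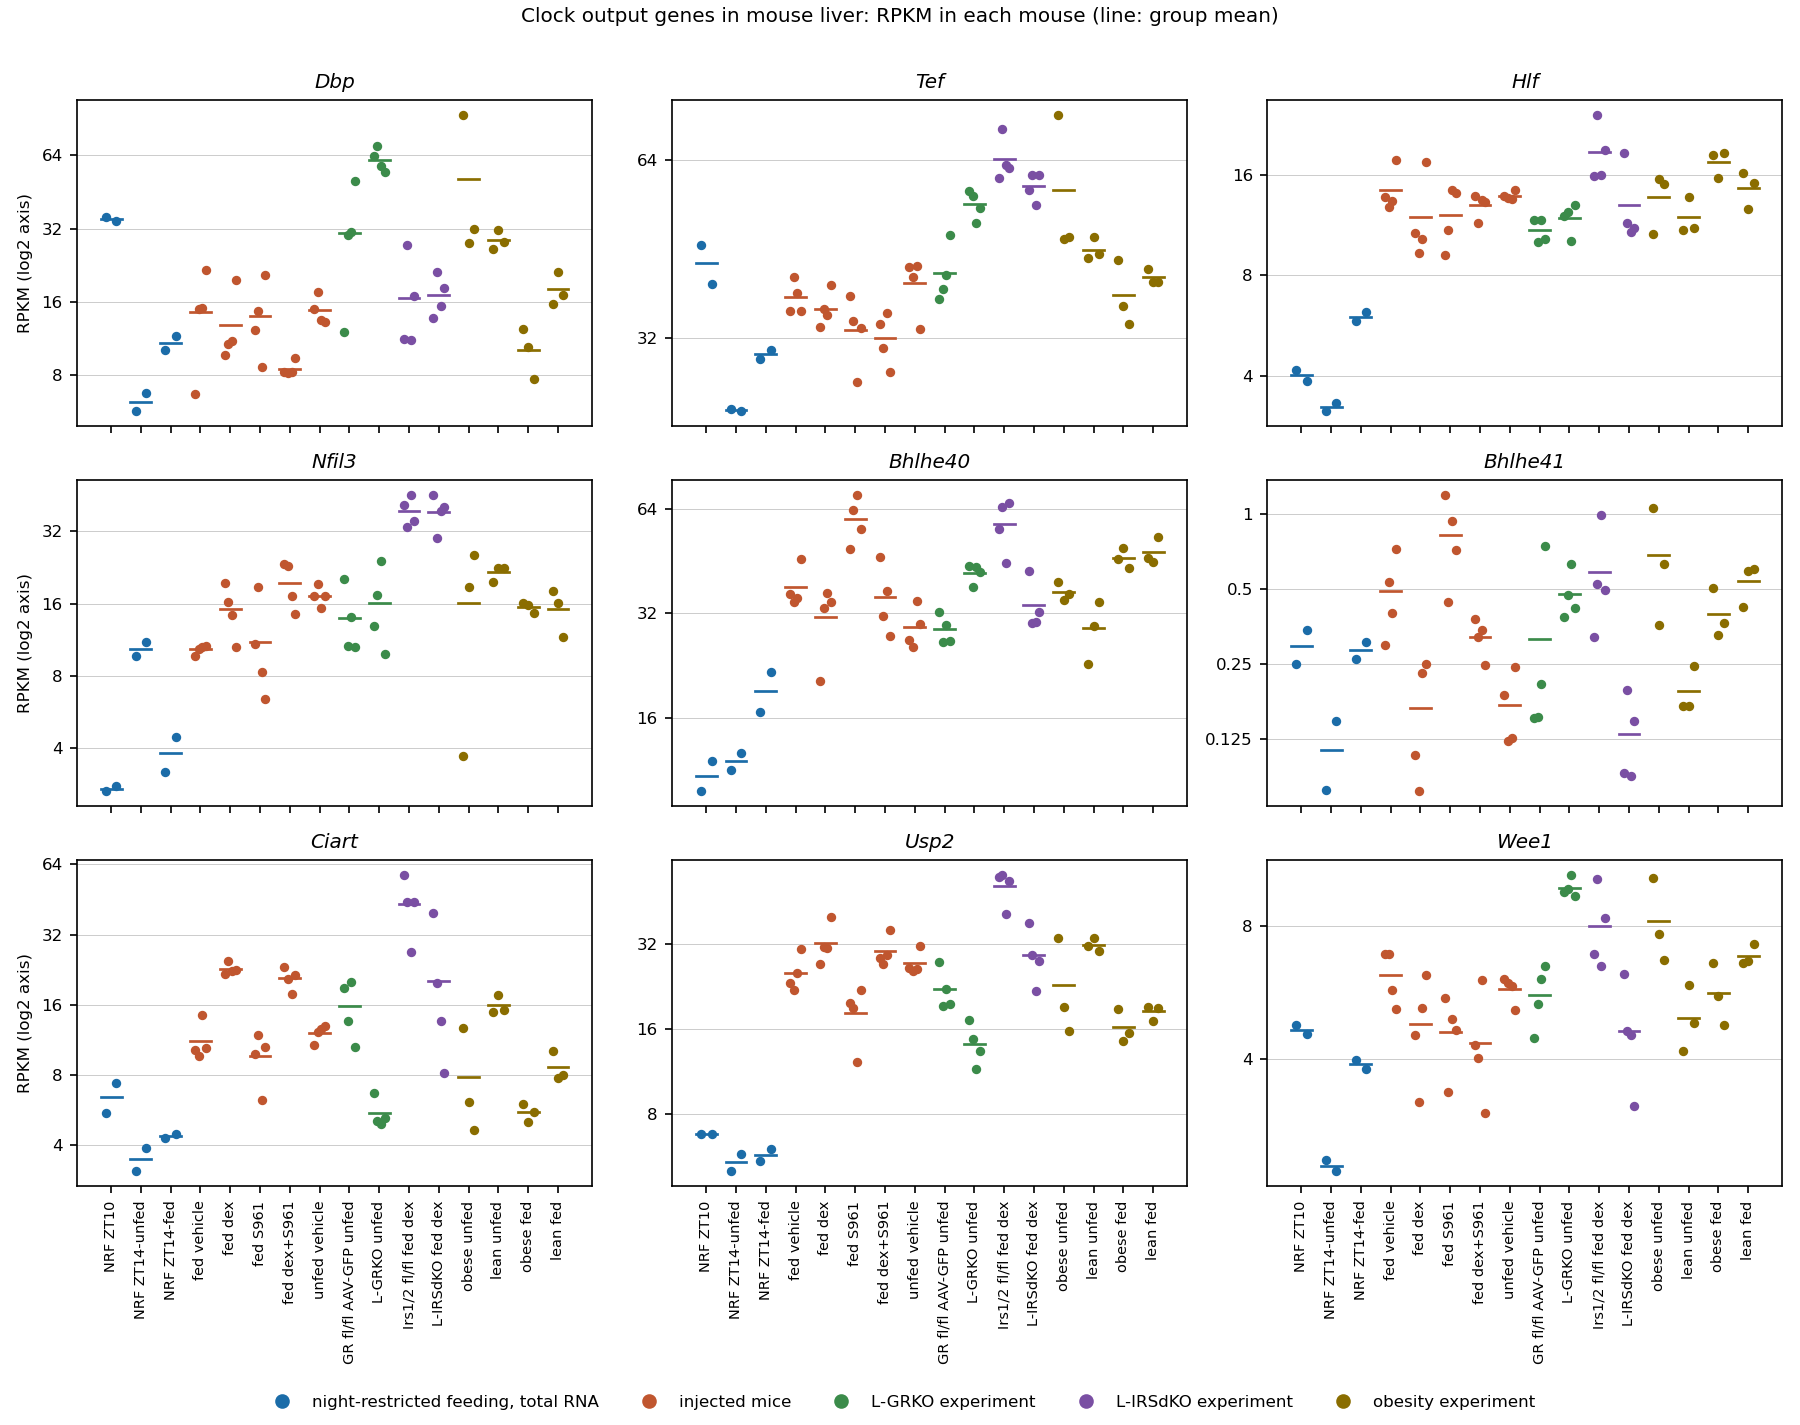
Each panel plots RPKM (y axis) of 1 of the 9 genes in every liver, by group on the x axis, with a point per liver and a bar for the group mean. Among NRF livers Dbp is highest at ZT10, it reaches 93.6 RPKM in 1 obese unfed liver, and Ciart is higher in the 4 fed dex livers than in the 4 fed vehicle livers.

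In the injected experiment the meal was measured as fed against unfed vehicle livers, in injected mice and in poly(A) RNA rather than total RNA. Nfil3 was at 9.70, 10.4, 10.6 and 10.7 RPKM in fed vehicle livers and at 15.3, 17.2, 17.2 and 19.4 in unfed vehicle livers, with no overlap. Its log2 difference of -0.71 (SE 0.24) had a limma adjusted p of 0.11, and 0 of 8 genes were called, against 3.13% of 11251 genes. With a term for the library numbers of the labels, Nfil3 was called (limma adjusted p = 0.037), as were 9.21% of all genes. Bhlhe40 was at 38.1 ± 5.35 RPKM (SD, n = 4) in fed and 29.3 ± 4.10 RPKM (SD, n = 4) in unfed vehicle livers. Dbp averaged 14.6 ± 6.12 RPKM fed and 14.8 ± 2.01 RPKM unfed (SD, n = 4), and the difference, -0.12 on the log2 scale, was smaller than the spread between livers. Summed Kupffer cell markers were at 62.6 to 98.5 RPKM in fed and 45.1 to 58.7 RPKM in unfed vehicle livers, with 2 of 5 markers higher in every fed liver, and their part was not tested.

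Dex raised Ciart. Ciart was at 10.2, 9.61, 14.4 and 10.4 RPKM in fed vehicle livers and at 21.7, 24.7, 22.4 and 22.4 in fed dex livers, so that every dex liver was above every vehicle liver. The difference was 1.01 (SE 0.15, limma adjusted p = 0.0012), and it was called under all 21 alternative settings or left-out libraries. Ciart was the 1 called gene of 8, against 3.19% of all genes. Usp2, at 25.4 ± 3.89 RPKM fed vehicle and 32.3 ± 5.38 RPKM fed dex (SD, n = 4), was not called, with a difference of 0.34 (limma adjusted p = 0.26). Nfil3 was at 19.6, 16.3, 14.4 and 10.6 RPKM with dex, a difference of 0.50 that was not called. Of the 4 endothelial markers 2 (Pecam1 and Clec4g) were lower in every dex liver. Lyve1 went the other way, at 11.9 to 16.5 RPKM with dex and 7.26 to 12.3 RPKM in fed vehicle livers. The sums of the 4 markers were at 46.9 to 56.1 RPKM with dex and 53.4 to 62.9 RPKM in fed vehicle livers. The part of these markers was not tested.

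With S961 alone 0 of the 8 genes were called by limma, against 1.9% of all genes. Bhlhe40 was at 49.2, 63.7, 70.3 and 56.1 RPKM with S961, all above the 34.6 to 46.0 RPKM of fed vehicle livers, and its difference of 0.64 (SE 0.18) had a limma adjusted p of 0.082. Usp2 was at 19.8, 19.0, 12.3 and 22.0 RPKM with S961, all below the 22.1 to 30.9 RPKM of fed vehicle livers, and its difference of -0.48 had a limma adjusted p of 0.14. It was called with the library number term (limma adjusted p = 0.015), as were 4.25% of all genes. Dex with S961 was compared with the same vehicle livers, so these comparisons share their controls. Ciart was at 23.1, 20.6, 17.8 and 21.3 RPKM and rose by 0.87 (SE 0.15, limma adjusted p = 0.0015). Nfil3 was at 23.5, 22.9, 17.3 and 14.6 RPKM, above the vehicle range of 9.70 to 10.7, and rose by 0.86 (SE 0.24, limma adjusted p = 0.025). Dbp, at 8.22, 8.21, 8.27 and 9.40 RPKM, was not called (difference -0.63, limma adjusted p = 0.17). Of the 8 genes 2 were called, against 10.6%. The Nfil3 call was lost without fed vehicle replicate 1 or 2 or dex with S961 replicate 1 or 2, where the adjusted p reached 0.086. The dex by S961 interaction called 0 genes of 8 and 0% of all genes by limma, with 513 genes at an unadjusted p under 0.05. Summed Kupffer cell markers, at 62.6 to 98.5 RPKM in fed vehicle livers, were at 40.1 to 64.1 RPKM with dex, 42.7 to 64.5 RPKM with S961 and 50.8 to 59.8 RPKM with both, and their part was not tested.

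Loss of hepatic GR in unfed livers went with different levels of 5 of the 8 tested genes. Ciart was at 18.9, 13.6, 20.1 and 10.5 RPKM in AAV-GFP livers and at 6.66, 5.04, 4.92 and 5.22 in L-GRKO livers, and it fell by 1.41 (SE 0.19, limma adjusted p = 0.0020). Usp2 went from 22.2 ± 3.90 to 14.2 ± 2.36 RPKM (SD, n = 4) and fell by 0.62 (limma adjusted p = 0.028). Wee1 was at 4.46, 5.33, 6.07 and 6.51 RPKM in AAV-GFP livers and at 9.56, 9.71, 10.5 and 9.37 in L-GRKO livers, and rose by 0.76 (SE 0.12, limma adjusted p = 0.0045). Bhlhe40, at 26.5 to 32.3 RPKM in AAV-GFP and 38.1 to 43.9 RPKM in L-GRKO livers, rose by 0.54 (SE 0.09, limma adjusted p = 0.0077). Tef rose by 0.39 (SE 0.10, limma adjusted p = 0.037), from 41.1 ± 4.64 to 53.8 ± 2.90 RPKM (SD, n = 4). Thus 5 of 8 genes were called, against 6.68% of 11649 genes. The Ciart, Wee1 and Bhlhe40 calls held under all 18 alternatives.

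Dbp was higher in all 4 L-GRKO livers (63.4, 69.6, 57.8 and 54.8 RPKM) than in all 4 AAV-GFP livers (12.1, 30.0, 31.1 and 50.2 RPKM), but the spread of the controls left the difference of 1.14 (SE 0.33) uncalled (limma adjusted p = 0.065). The Tef call was lost under 13 of 18 alternatives, with a highest adjusted p of 0.12, and it was lost without each of 7 single libraries. The Usp2 call was lost under 7 of 18, including without AAV-GFP replicate 1 or 3 and L-GRKO replicate 2, 3 or 4, with a highest adjusted p of 0.073. Summed blood markers were at 330.5 to 622.6 RPKM in L-GRKO livers and 223.3 to 288.6 RPKM in AAV-GFP livers. Summed stellate markers were at 8.70 to 12.9 RPKM and 5.85 to 7.77 RPKM, with 1 of 3 markers higher in every L-GRKO liver. The part of both in these results was not tested.

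Loss of Irs1 and Irs2, in fed livers that all had dex, gave 3 lower genes. Bhlhe40 was at 56.0, 64.7, 44.8 and 66.8 RPKM in floxed livers and at 42.4, 30.0, 30.2 and 32.4 in L-IRSdKO livers, and it fell by 0.77 (SE 0.15, limma adjusted p = 0.012). Usp2 was at 55.3, 56.3, 41.1 and 53.7 RPKM and then at 38.1, 29.3, 21.9 and 27.9, and fell by 0.82 (SE 0.17, limma adjusted p = 0.013). Wee1 fell by 0.74 (SE 0.21, limma adjusted p = 0.040), from 8.02 ± 1.69 to 4.64 ± 1.27 RPKM (SD, n = 4). Ciart was at 26.9 to 57.6 RPKM in floxed livers and 8.17 to 39.5 RPKM in knockouts, and was not called (difference -1.25, limma adjusted p = 0.074). The 3 calls of 8 stand against 17.4% of 12966 genes. Both Bhlhe40 and Usp2 were called under 17 of 18 alternatives and lost at the 0.01 threshold, whereas Wee1 was lost under 9 of 18, among them leaving out floxed replicate 1, 2 or 4 or knockout replicate 2, 3 or 4, with a highest adjusted p of 0.093. Without knockout replicate 1, 5 of the 8 genes and 23.3% of all genes were called. Kupffer cell markers summed to 248.3 to 318.0 RPKM in knockouts and 140.7 to 261.7 RPKM in floxed livers. Of the 4 endothelial markers 3 were higher in every knockout, and their sums were at 97.9 to 129.5 RPKM and 80.1 to 105.5 RPKM. Other lists went down without overlap of the sums. Blood markers summed to 58.67 to 85.85 RPKM in knockouts and 85.92 to 148.3 RPKM in floxed livers. Cholangiocyte markers summed to 0.299 to 1.71 RPKM and 2.05 to 2.85 RPKM. The part of these cell types was not tested.

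**Figure D2:**
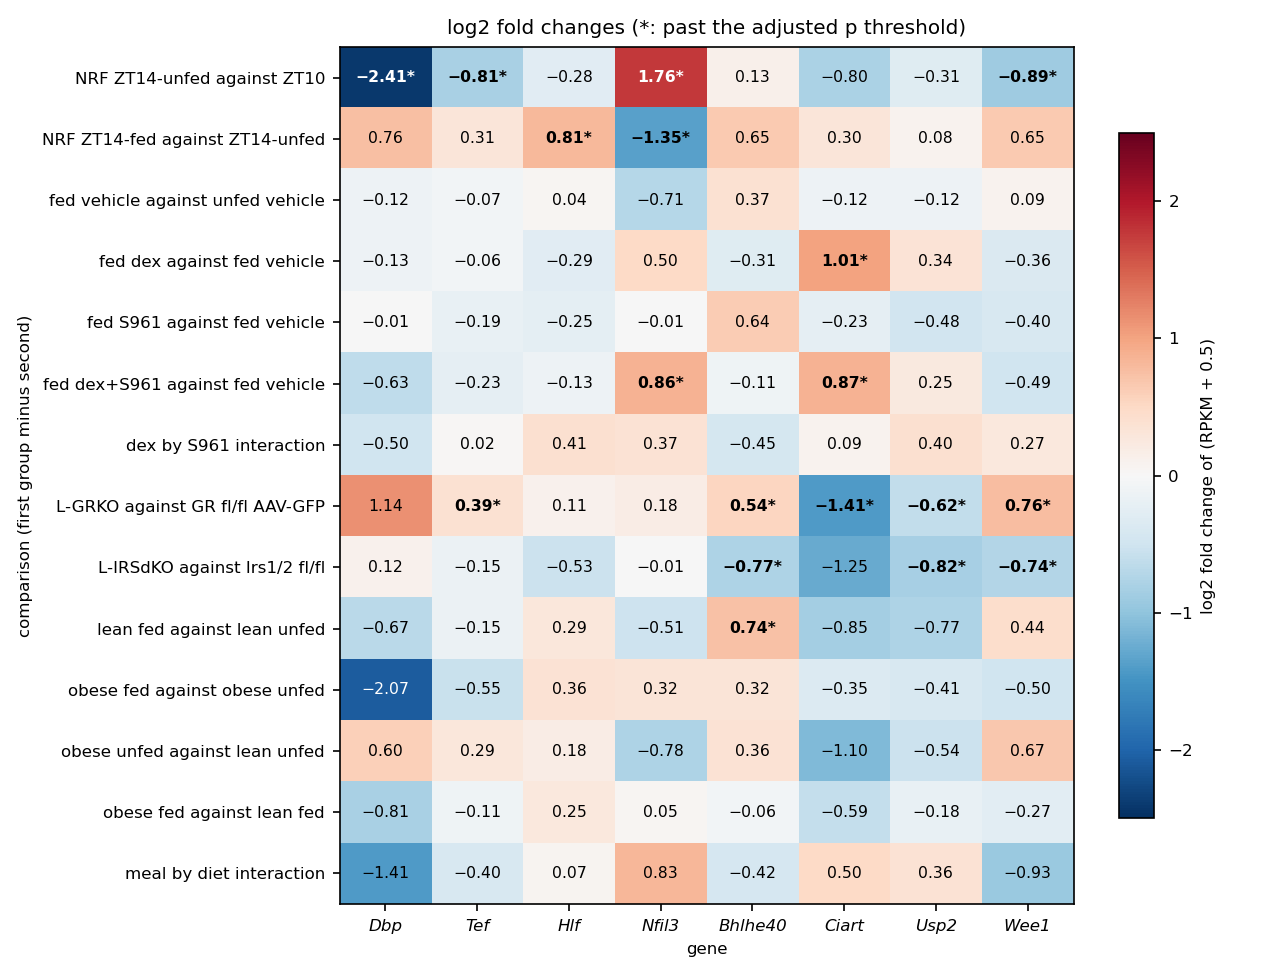
The map gives the log2 difference of RPKM + 0.5 (colour) for the 8 tested genes (columns) in the comparisons of the study (rows), and marks the calls. Ciart differs by 1.01 with dex and by -1.41 in L-GRKO livers, and Dbp by -2.41 from ZT10 to ZT14-unfed.

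In lean mice the meal raised Bhlhe40, from 22.9, 29.4 and 34.6 RPKM unfed to 46.2, 45.1 and 53.3 RPKM fed, by 0.74 (SE 0.13, limma adjusted p = 0.0032). It was the 1 called gene of 8, against 10.2% of 11434 genes, and the call was lost without lean unfed replicate 2 or any 1 lean fed library (highest adjusted p 0.015). Usp2 was at 31.5, 33.6 and 30.3 RPKM unfed and 19.2, 17.1 and 19.1 fed, and Ciart at 14.8, 17.6 and 15.2 unfed and 10.1, 7.76 and 7.98 fed. Neither overlapped between groups, and neither passed 0.01, with limma adjusted p of 0.025 and 0.040. Nfil3 was at 11.6 to 18.1 RPKM fed and 19.8 to 22.5 RPKM unfed, a difference of -0.51 that was not called (limma adjusted p = 0.51). Tef, Wee1 and Bhlhe41 did not overlap either, whereas Hlf did. Dbp was at 26.5, 31.5 and 28.2 RPKM unfed and 15.7, 21.3 and 17.0 RPKM fed, without overlap, and its difference of -0.67 (SE 0.36) was not called (limma adjusted p = 0.21). This SE rests on the spread of all groups of the experiment, obese unfed replicate 1 included. In the obese fed against unfed comparison without that library, the Dbp SE was 0.18. Of the 4 endothelial markers 3 were lower in every fed liver, with sums of 34.9 to 41.5 RPKM fed and 48.2 to 58.2 RPKM unfed, and their part was not tested.

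Dbp was at 93.6, 27.8 and 31.7 RPKM in obese unfed livers and at 12.4, 10.4 and 7.70 in obese fed livers, a difference of -2.07 (SE 0.36) with a limma adjusted p of 0.010 above the threshold of 0.01. Without obese unfed replicate 1, the liver at 93.6, the difference was -1.53 (SE 0.18, limma adjusted p = 0.0064) and passed it, with 0.533% of all genes called. With all libraries 0 of 8 genes were called, against 1.22% of all genes. The same replicate had Nfil3 at 3.70 RPKM, where its partners had 18.8 and 25.7, and Ciart at 12.7 against 6.09 and 4.63. Nfil3 in obese fed livers was at 16.1, 15.9 and 14.7 RPKM, and the fed-against-unfed difference was 0.32 with that library and -0.49 without it. The Ciart difference was -0.35 with it and 0.04 without. For Usp2 the difference was -0.41 with that library and -0.10 without, and for Tef -0.55 and -0.32.

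Between obese and lean unfed livers, 0 of 8 genes were called with all libraries, against 0.77% of all genes. Ciart was at 7.81 ± 4.29 RPKM in obese and 15.9 ± 1.49 RPKM in lean unfed livers (SD, n = 3) (difference -1.10, limma adjusted p = 0.041) and Wee1 at 10.3, 7.68 and 6.71 RPKM against 4.17, 5.88 and 4.84 (0.67, limma adjusted p = 0.041). Without obese unfed replicate 1, the Ciart difference was -1.49 (limma adjusted p = 0.00087) and the Usp2 difference -0.85 (limma adjusted p = 0.0038), and both passed the threshold, with 3.12% of all genes called. The Wee1 difference was then 0.50 (limma adjusted p = 0.053). Uncalled differences moved as well, from 0.60 to 0.05 for Dbp and from 0.29 to 0.06 for Tef. Of the 4 endothelial markers 3 were lower in every obese unfed liver than in every lean unfed liver, with sums of 27.3 to 33.9 RPKM and 48.2 to 58.2 RPKM. Summed hepatocyte markers were at 52887 to 56638 RPKM in obese unfed and 57246 to 65746 RPKM in lean unfed livers. The part of these cell types was not tested. Ciart was at 14.8 to 17.6 RPKM in the lean unfed livers and at 6.09 and 4.63 RPKM in the 2 remaining obese livers. Usp2 was at 30.3 to 33.6 RPKM and at 19.2 and 15.8 RPKM in the same livers. Between obese and lean fed livers 0 of 8 genes and 0% of all genes were called by limma, with 2284 genes at an unadjusted p under 0.05. Ciart was at 5.51 ± 0.483 RPKM in obese fed and 8.61 ± 1.28 RPKM in lean fed livers (SD, n = 3), and Dbp at 7.70 to 12.4 RPKM and 15.7 to 21.3 RPKM. Summed hepatocyte markers were at 49537 to 53222 RPKM in obese fed and 58449 to 62152 RPKM in lean fed livers. Stellate sums were at 6.94 to 8.30 RPKM and 3.90 to 6.60 RPKM, and cholangiocyte sums at 0.936 to 1.35 RPKM and 1.46 to 2.31 RPKM. The part of these cell types was not tested. The meal by diet interaction, which tests the difference between the lean and the obese response, called 0 of 8 genes and 0.131% of all genes. Its Dbp term was -1.41 (limma adjusted p = 0.23) and its Wee1 term -0.93 (limma adjusted p = 0.094). Without obese unfed replicate 1 the Dbp term was -0.86 (limma adjusted p = 0.11) and the Wee1 term -0.77 (limma adjusted p = 0.086), and the Ciart term went from 0.50 to 0.90 (limma adjusted p = 0.052).

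The balance of activators and repressor was read as the log2 ratio of summed Dbp, Tef and Hlf to Nfil3 in each liver. It was 5.02 and 4.81 at ZT10, 1.77 and 1.62 in ZT14-unfed and 3.83 and 3.44 in ZT14-fed livers of the NRF experiment. Fed vehicle livers had 2.53 to 2.81 and unfed vehicle livers 1.83 to 2.18, also without overlap. With dex the ratio was 1.46 to 2.85, with S961 1.68 to 3.40, and with both 1.14 to 1.80, the last wholly below the fed vehicle range. In lean mice the fed range of 2.03 to 2.63 met the unfed range of 1.89 to 2.04. L-GRKO livers had 2.29 to 3.61 and AAV-GFP livers 1.59 to 3.35, and L-IRSdKO livers 0.98 to 1.62 and floxed livers 0.99 to 1.88, with overlap in both. Obese unfed livers had 5.61, 2.26 and 1.87, the first being replicate 1. These ratios are descriptions and were not tested.

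**Figure D3:**
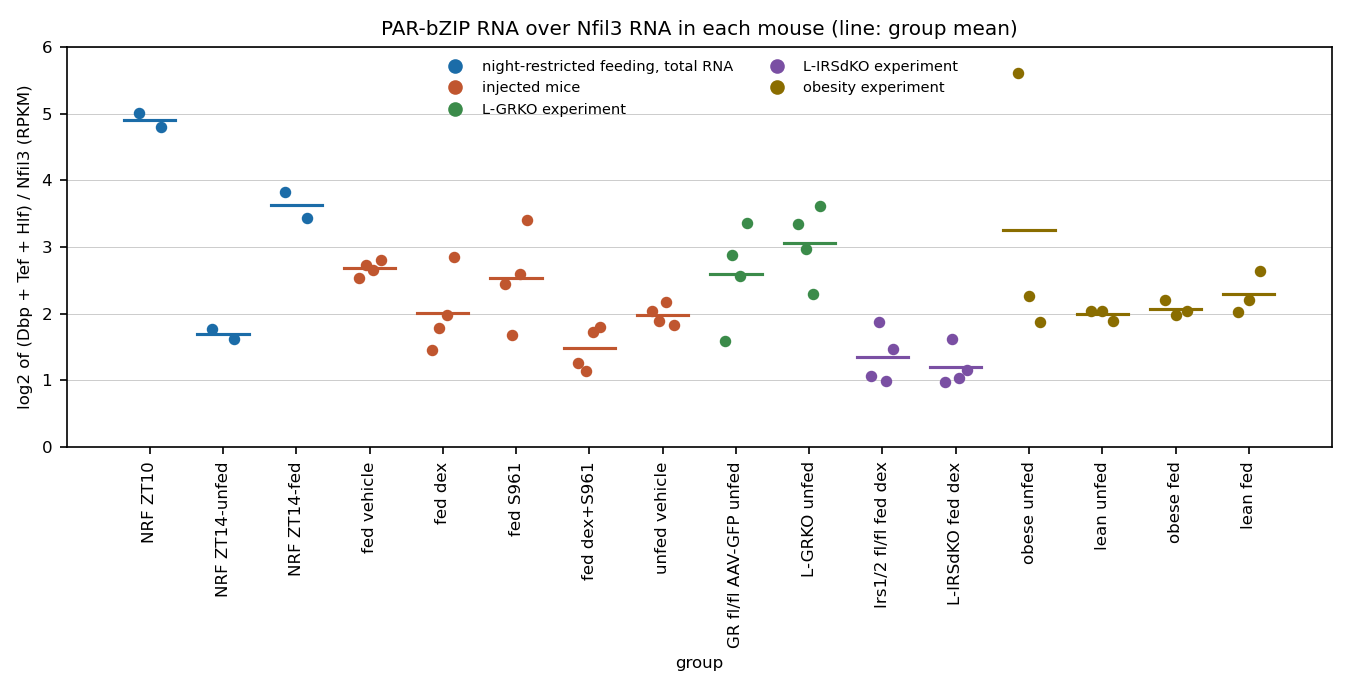
The y axis is the log2 ratio of the summed RPKM of Dbp, Tef and Hlf to the RPKM of Nfil3, and the x axis the 16 groups, with 1 point per liver. Within the NRF experiment the ZT10 livers, at 5.02 and 4.81, lie above the ZT14 livers, and within the obesity experiment 1 unfed liver, at 5.61, lies above the others.

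Over all 16 groups, Bhlhe41 was the lowest of the 9 genes, with group means of 0.112 to 0.824 RPKM. Its values rest on few reads. It was at 0.297 to 0.725 RPKM in fed vehicle livers, 0.077 to 0.25 RPKM in fed dex livers and 0.444 to 1.20 RPKM in fed S961 livers. Hlf was at 9.17 to 17.8 RPKM in the injected experiment and at 11.9 ± 1.23 RPKM (SD, n = 4) in L-GRKO livers. Wee1 group means lay between 2.30 and 9.77 RPKM, those of Tef between 24.2 and 64.2 RPKM and those of Bhlhe40 between 10.9 and 59.8 RPKM. Such ranges pool experiments that differed in library type and depth, so they are not read as differences between conditions.

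The other clock genes were counted from a list of 12, of which 11 were tested. Arntl (2.08), Clock (0.93) and Cry1 (1.58) rose and Per3 (-1.11) fell from ZT10 to ZT14-unfed, and the median of the list was 0.07 beside -0.10 over all genes. Per2 rose with the meal in the NRF livers (1.24) and in lean livers (0.80), and the calls in lean livers also included lower Nr1d2 (-1.16) and Rora (-0.87). Dex raised Cry2 (0.81), and dex with S961 raised Cry2 (0.65) while Per2 (-1.01) and Per3 (-0.54) fell. The calls in L-GRKO livers included a higher Nr1d1 (1.16) and a lower Per1 (-0.84), a direct glucocorticoid target. In L-IRSdKO livers Per2 (-0.75) fell. In the other comparisons 0 of the 11 genes were called by limma. Over all genes, 1.16% were called from ZT10 to ZT14-unfed, 0.99% with the NRF meal and 10.2% with the lean meal. With dex 3.19% of all genes were called, with dex and S961 10.6%, and in L-GRKO livers 6.68%. In L-IRSdKO livers 1 of the 11 genes was called, beside 17.4% of all genes.

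Liver genes described as controlled by PAR-bZIP factors, 10 in all, were counted in the same way, with 8 to 10 of them tested. In the NRF experiment 0 of 8 were called by limma in either comparison, where 1.16% and 0.99% of all genes were, and the medians of the list were -0.04 and -0.11. Dex raised Cyp2a4 (3.98) and Cyp2b10 (2.30), whereas Cyp2c37 (-1.13) and Cyp2c50 (-0.74) fell, so the list did not move one way. Cyp7a1, the rate-limiting enzyme of bile acid synthesis, fell with S961 (-2.22) and with dex and S961 (-1.78), where Cyp2b10 (2.22) rose, and rose with the meal in lean mice (1.52), where Por (-0.73) fell. In L-GRKO livers Cyp2c50 (0.56) rose and Alas1 (-0.70) and Por (-0.61) fell, and in L-IRSdKO livers Cyp2b9 (6.32) and Por (0.25) rose. The Cyp2 genes have near-identical copies, so reads may have been split among them. The remaining comparisons called 0 of the tested genes of the list by limma. The shares of all genes called were 3.19% with dex, 1.9% with S961, 10.6% with both, 10.2% with the lean meal and 6.68% in L-GRKO livers. In L-IRSdKO livers 2 of 10 genes of the list were called, beside 17.4% of all genes.

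Some of the 9 genes had similar patterns across the study. Over the 16 group means of log2(RPKM + 0.5), centred within each experiment, Pearson's r was 0.945 for Dbp and Tef, 0.922 for Ciart and Usp2, 0.801 for Bhlhe40 and Bhlhe41, 0.790 for Tef and Wee1 and -0.545 for Dbp and Nfil3. These values describe group means that share libraries, and the ZT10 and obese unfed groups weigh in those of Dbp. Among 10521 genes, the patterns most like that of Dbp were Micu2 (0.950), Ngef (0.940) and Mipep (0.936), and those most like Tef were Hdac11 (0.970), Ngef (0.947) and Cd82 (0.931). Hlf was closest to Morn2 (0.915), Nectin1 (0.914) and Amigo3 (0.907). Nfil3 had lower best values, with Gata6 (0.821), Ccn2 (0.812) and Ivns1abp (0.802). Bhlhe40 was closest to 0610040F04Rik (0.957), which overlaps it on the opposite strand, so their reads cannot be told apart without strand, and then to Inhbe (0.922) and Tmem102 (0.913). For Bhlhe41 these were Tlr5 (0.914), Kdm5b (0.897) and Adipor2 (0.874). Ciart was closest to Syde2 (0.890), Chd1l (0.882) and Etnk2 (0.864). Usp2 was closest to Adarb1 (0.926), Fam214b (0.917) and Syde2 (0.917), so Syde2 is near both. Wee1 was closest to Apol7a (0.952), 0610005C13Rik (0.947) and Gsap (0.945).

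**Figure D4:**
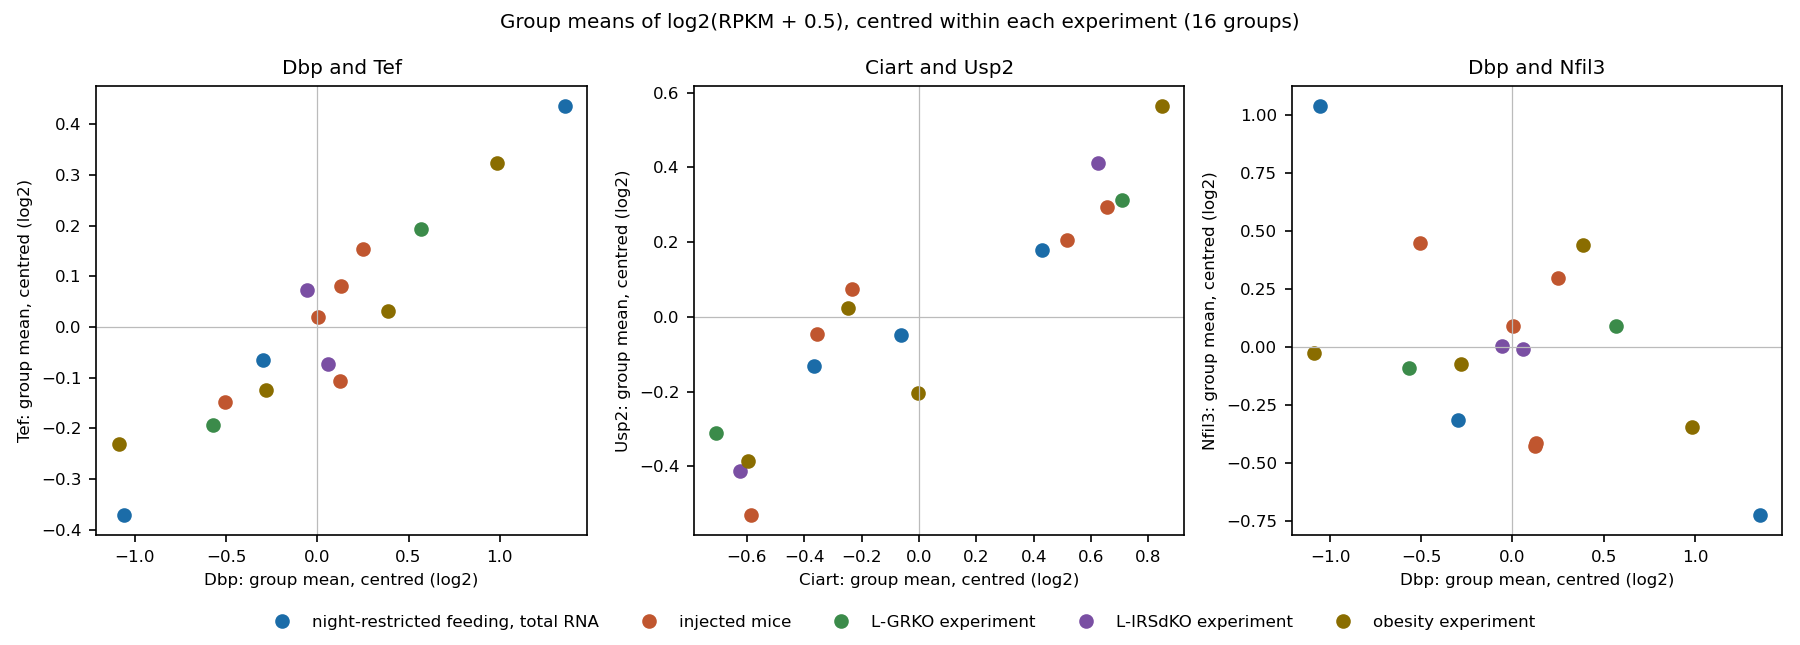
Each panel sets the centred group means of log2(RPKM + 0.5) of 1 gene against another (Dbp and Tef, Ciart and Usp2, Dbp and Nfil3), with 1 point for each of the 16 groups and colours for the 5 experiments. The first 2 pairs rise together (r = 0.945 and 0.922), and Dbp against Nfil3 falls (r = -0.545).

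Sites were then counted within 50 kb of the annotated 5' end of each gene. GR sites lay within 50 kb of 8 of the 9 genes (28 sites), beside 45.9% of expressed genes, and FOXO1 sites near 8 of 9 (15 sites), beside 48.9%. All 9 had DHS (87 sites), as did 99.5% of expressed genes. Within 20 kb the counts were 7 for GR (27.9% of genes) and 6 for FOXO1 (31.4%). Dbp (chr7:52960458-52965525) had no GR site within 50 kb, its nearest being 94.17 kb away, but had FOXO1 sites 4.16 kb upstream and 8.87 kb downstream, in introns of Car11 and Sphk2. Wee1 (chr7:117265864-117285626) had no FOXO1 site, its nearest being 104.14 kb away, and GR sites 5.23 kb upstream and 41.78 kb downstream, both between genes. Ciart (chr3:95682426-95686174, named Gm129 in the annotation) had GR sites 0.58 kb upstream and 2.99 kb downstream, the latter in an intron of the gene. Usp2 (chr9:43875104-43903708) had GR sites 12.08 and 19.52 kb into the gene, both intronic, and the second overlapped its 1 FOXO1 site. Some genes have further annotated starts inside the gene. From the nearest annotated start, GR sites lay as close as 1.62 kb at Usp2, 0.58 kb at Tef and 0.08 kb at Hlf. FOXO1 sites then lay 1.6 kb away at Usp2 and 0.67 kb at Tef. The RefSeq ID read for expression was not matched to a start.

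Nfil3 (chr13:53062578-53076442) had 5 GR and 2 FOXO1 sites, and in its intron at 4.70 kb a GR site overlapped a FOXO1 site at 4.65 kb and a DHS. Tef (chr15:81632851-81657291) had 7 GR and 4 FOXO1 sites, with 3 of its GR sites overlapping a FOXO1 site, including one in an intron at 8.05 kb. Hlf (chr11:90197849-90252231) had 6 GR sites, all in its introns, and 2 FOXO1 sites, which both overlapped GR sites. Bhlhe40 (chr6:108610623-108616919) had 3 GR sites upstream, the nearest at 1.08 kb, and 1 FOXO1 site at 2.04 kb upstream. Bhlhe41 (chr6:145806763-145814078) had 1 GR site and 1 FOXO1 site, which overlapped each other 36.23 kb downstream between genes. All coordinates are mm9. The FOXO core, searched as GTAAACA on both strands, was found in 1 of the 15 FOXO1 sites, at Ciart, and in 18.8% of all FOXO1 sites.

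**Figure D5:**
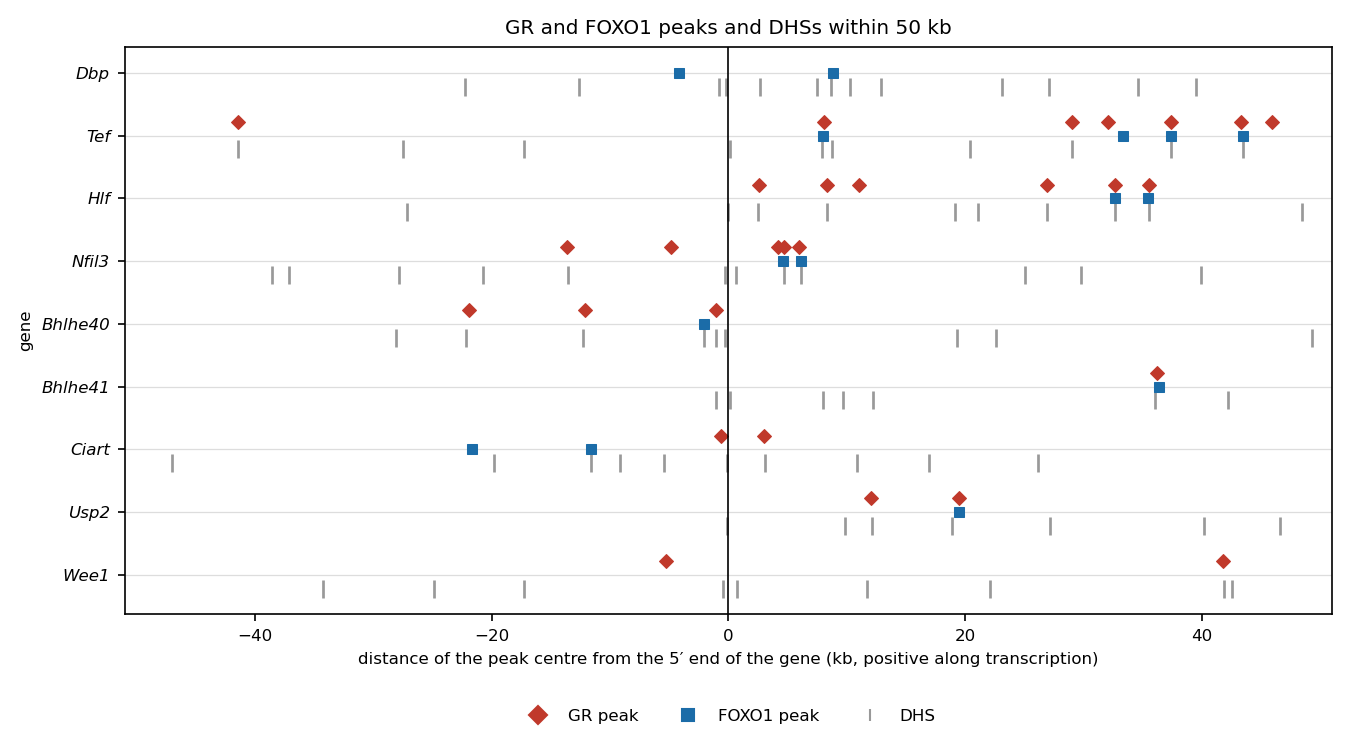
For each of the 9 genes (rows), marks give the distance in kb (x axis) of GR sites, FOXO1 sites and DHS from the gene's 5' end, up to 50 kb on either side, with upstream to the left. Dbp has no GR site, Wee1 no FOXO1 site, and the 6 GR sites of Hlf all lie inside the gene.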

How the data were processed

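RNA was measured in 54 livers in 5 experiments. The authors aligned reads to mm9 with STAR and deposited 1 table of RPKM per RefSeq transcript; the submitters' processing notes also name DESeq2 and HOMER, without versions. NRF libraries were ribosomal RNA-depleted total RNA and the others poly(A) RNA. The strand used in counting is not given in the sources used here, so antisense overlaps (Dbp with Sphk2, Tef with Gm17597, Bhlhe40 with 0610040F04Rik, Ciart with C920021L13Rik, Usp2 with Rnf26) cannot be separated. The deposited RPKM table holds no totals; read totals that the study lists elsewhere were not used here, and relative depth was read from the steps of low values. The authors called GR and FOXO1 sites (HOMER, against input) in each of 2 unfed replicates and kept shared ones, and DHS on combined reads; the deposited site lists give positions only.

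Log2(RPKM + 0.5) was fitted with limma 3.58.1 (R 4.3.3) per experiment, with a variance trend, all groups of the experiment sharing the spread, a mean of at least 0.5 RPKM, and Benjamini-Hochberg adjustment over all genes tested. The study's count model could not be used on RPKM. Each symbol was read from its RefSeq ID with the highest mean. Named genes were the 9 genes, the 3 most similar genes of each, and called genes of the 2 fixed lists, of which 1 is not reported here. The members and lists were chosen with earlier results of these data known. Site positions were joined to the GENCODE mm9 annotation with Python 3.11.15 and pandas 2.3.3, counting an overlap of at least 1 base. Alternatives changed the pseudocount, filter, scaling, threshold, variance trend, transcript, samples in the fit and single libraries. The limma script was tested on simulated data. Labels do not say that same-numbered mice were paired. Each library is 1 mouse, so p-values measure the spread between mice. The largest median shifts over all genes were 0.12 (NRF meal), 0.10 (vehicle meal), -0.14 (dex with S961), -0.10 (dex) and -0.10 (ZT14-unfed against ZT10). Under median-ratio scaling the Tef and Wee1 calls from ZT10 to ZT14-unfed were lost.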

Additional observations from a re-analysis of the deposited data

Results flagged for a closer look

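In 81 groups of 4 livers tested, 7 (8.64%) had a highest or lowest value whose gap to the nearest other liver took up more of the range than Dixon's 95% limit, where chance gives about 1 in 20. Each was the highest of its 4 livers. Dbp was at 19.693 RPKM in fed dex replicate 4 and at 9.403 RPKM in fed dex with S961 replicate 4, the latter within a narrow range that began at 8.206 RPKM. Hlf was at 18.636 RPKM in L-IRSdKO replicate 1. Bhlhe40 was at 46.03 RPKM in fed vehicle replicate 4, and Usp2 at 31.599 RPKM in unfed vehicle replicate 4. Ciart was at 14.438 RPKM in fed vehicle replicate 3, which still lay below all 4 fed dex livers. Bhlhe41 was at 0.749 RPKM in AAV-GFP replicate 4, a value that rests on few reads. Replicate 4 of the injected experiment carried 4 of the 7. Without every replicate 4 of that experiment, an alternative chosen after seeing the data, Ciart differed by 0.99 with dex (limma adjusted p = 0.0075) and 0.83 with dex and S961 (limma adjusted p = 0.015), and Nfil3 by 1.01 with dex and S961 (limma adjusted p = 0.011).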

How the results depend on the processing

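Of 1535 values of single genes under alternatives, 1421 kept their direction and side of the threshold, 81 lost and 30 gained a call, and 3 turned direction, all without obese unfed replicate 1 and none of them called: Nfil3 and Ciart in obese fed against unfed livers (-0.49 and 0.04) and Nfil3 in obese against lean unfed livers (0.03). When each library was left out in turn, those 3 values ranged from -0.49 to 0.83, from -0.64 to 0.044 and from -1.29 to 0.03. Counts of called genes, of 8, that moved by over 1.5 times are given with the share of all genes called in the same fit; smaller moves, such as the single loss of Tef in L-GRKO livers under quantile normalization, are left out. At the other threshold (0.05 for 0.01 or the reverse) they were 4 (6.77%) for the NRF meal, 1 (4.16%) for dex with S961, 3 (2.32%) for L-GRKO, 0 (4.46%) for L-IRSdKO, 3 (23.4%) for the lean meal, 1 (7.65%) for the obese meal and 2 (5.22%) for obese against lean unfed. With no filter they were 1 (0.0797%) for ZT14-unfed against ZT10, 0 (0.085%) for the NRF meal and 3 (2.61%) for L-GRKO, and with a filter of 2 RPKM 1 (2.44%) for the obese meal. Median-ratio scaling gave 2 (0.678%) for ZT14-unfed against ZT10 and 1 (1.8%) for S961 (Bhlhe40), and quantile normalization 1 (0.587%) for the NRF meal, 0 (8.29%) for the lean meal and 1 (1.18%) for the obese meal. Without a variance trend the NRF meal gave 0 (0.55%). Fitting the compared groups alone gave 1 (0.0185%) for ZT14-unfed against ZT10, 0 (0.606%) for the NRF meal, 1 (2.43%) for the vehicle meal and 3 (9.66%) for the lean meal. The library number term gave 1 (9.21%) for the vehicle meal and 1 (4.25%) for S961.

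Same-numbered libraries of the injected experiment deviated together in part, with correlations of -0.12 to 0.605 (median 0.142, against -0.051 for other pairs), but not in every pair; in the other experiments they ranged from -0.201 to 0.215. Since some pairs fell below 0.1, the numbers were not taken as pairing the mice. With the replicate number as a block, the counts were 2 for ZT14-unfed against ZT10, 0 for the NRF meal, 1 for the vehicle meal (Nfil3, adjusted p 0.028) and 1 for S961 (Usp2, adjusted p 0.026). Over all genes the block moved the calls from 352 to 928 for the vehicle meal, 359 to 968 for dex, 214 to 432 for S961, 1193 to 2041 for dex with S961, 127 to 10 and 108 to 40 in the NRF comparisons, 2253 to 1444 for L-IRSdKO, 140 to 62, 88 to 40 and 15 to 3 in the obesity comparisons. The library number term gave 1036, 1096, 478 and 2204 for the 4 injected comparisons.

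Leaving out 1 library, which in the NRF experiment leaves a lone liver assumed to vary like the other groups, gave 0 to 2 called genes (0.0184% to 1.9% of all genes) for ZT14-unfed against ZT10, 0 to 1 (0.0458% to 2.14%) for the NRF meal, 1 to 3 (5.92% to 9.67%) for dex with S961, 3 to 6 (3.36% to 6.09%) for L-GRKO, 2 to 5 (8.34% to 23.3%) for L-IRSdKO, 0 to 1 (3.7% to 6.25%) for the lean meal, 0 to 1 (0% to 0.988%) for the obese meal and 0 to 2 (0.0437% to 3.12%) for obese against lean unfed. With a pseudocount of 0.5 RPKM the mean activator to Nfil3 ratio at ZT10 was 4.68. Depth limits Bhlhe41, whose values were near a few reads, and 2 livers per NRF group limit those calls.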
